A study of Homo sapiens with 21 samples.

Results

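The 9 genes HLA-B, HLA-C, HLA-E, B2M, TAP1, TAP2, TAPBP, PSMB8 and PSMB9 of the MHC class I antigen presentation pathway were followed through 21 RNA-seq libraries. They were chosen by symbol, with earlier results of these data known. All 9 were found in each of the 4 tables, among 15719 to 19505 genes per table. The study asked how METTL4, a methyltransferase reported to place N6-methyl marks on nuclear DNA adenines, shapes the response of tumour cells to hypoxia. The FADU line derives from a human tumour of the head and neck, the BFTC-909 line from one of the renal pelvis. In each line, 2 libraries came from Scramble-si cells in normoxia (18% O2), 2 from Scramble-si cells in hypoxia (1% O2 for 18 h) and 2 from METL4-si cells in the same hypoxia. The third table held normoxic FADU cells, with 2 libraries each of an OE control, METTL4-OE and RP11-390F4.3-OE, RP11-390F4.3 being a long noncoding RNA. Per the study's methods these were stable clones selected after plasmid transfection. The columns used here for RP11-390F4.3-OE carry another name and were assigned to that group because no other column of that table was left for it. The fourth table held hypoxic FADU cells with 1 CRISPR control library, which is labelled WT, and 1 library from each of 2 METTL4-DPPW-mut clones, single-cell lines edited at the catalytic motif of METTL4. The labels name an siRNA for METL4-si while the methods describe lentiviral hairpins, so the agent is given as labelled.

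Class I molecules display peptides from inside the cell to CD8 T cells. The heavy chains HLA-B and HLA-C and the less variable HLA-E, a ligand of an NK cell receptor, each pair with the light chain beta-2 microglobulin, encoded by B2M. PSMB8 and PSMB9 are catalytic subunits of the immunoproteasome, which cuts proteins into peptides. TAP1 and TAP2 form the transporter that carries those peptides into the endoplasmic reticulum, and TAPBP encodes tapasin, which holds empty class I molecules at the transporter. Interferon gamma raises these genes in many cell types in part through IRF1, NF-kB acts on several of them, and NLRC5 is the transactivator of class I promoters.

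On the genome build hg19, B2M lies on chr15:45003556-45011049 and the other 8 genes lie in the MHC region of chromosome 6, from HLA-E at chr6:30457286-30461971 to TAPBP at chr6:33267471-33282061. PSMB8 (chr6:32808494-32812456) and TAP1 (chr6:32812986-32821593), both on the minus strand, lie inside or across the annotated span of PSMB9 (chr6:32811913-32827628) on the plus strand. TAP2 (chr6:32789610-32806516) follows PSMB8 on the minus strand. The labels name a stranded kit, but the strand setting of the counting is not given in the sources used here, so reads of PSMB9, PSMB8 and TAP1 that overlap could be shared. HLA-B and HLA-C are close paralogs that vary between people and cell lines, and reads that match both, or neither reference allele, may have been lost, so differences in level between these genes are uncertain. The promoters below are those of RefSeq on GRCh38.p14, which holds a window for 8 of the 9 members and 10 start sites. HLA-B with HLA-C and TAP1 with TAP2 are shown because each pair moved unequally in some of the comparisons that follow. TAPBP is shown as well, and of the start sites of TAP1 only the first. Capitals mark matches, on either strand, to GAAANNGAA, the core of the interferon-stimulated response element, or to GGGNNNTCC, a core of NF-kB sites. Each runs 5′ to 3′ from 250 bases before the start through the first 20 bases from it.
HLA-B, chr6:31357160-31357429, minus strand: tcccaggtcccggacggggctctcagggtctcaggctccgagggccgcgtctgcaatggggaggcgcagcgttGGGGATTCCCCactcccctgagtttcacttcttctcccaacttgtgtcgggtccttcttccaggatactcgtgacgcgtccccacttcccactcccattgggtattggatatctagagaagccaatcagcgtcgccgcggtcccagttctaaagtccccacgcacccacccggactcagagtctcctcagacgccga
HLA-C, chr6:31272073-31272342, minus strand: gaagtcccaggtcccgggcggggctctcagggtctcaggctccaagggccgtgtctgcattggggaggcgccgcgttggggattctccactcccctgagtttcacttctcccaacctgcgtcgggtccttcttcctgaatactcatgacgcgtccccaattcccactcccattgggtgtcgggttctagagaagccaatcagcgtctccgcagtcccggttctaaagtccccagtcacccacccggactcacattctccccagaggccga
TAP1, chr6:32853685-32853954, minus strand: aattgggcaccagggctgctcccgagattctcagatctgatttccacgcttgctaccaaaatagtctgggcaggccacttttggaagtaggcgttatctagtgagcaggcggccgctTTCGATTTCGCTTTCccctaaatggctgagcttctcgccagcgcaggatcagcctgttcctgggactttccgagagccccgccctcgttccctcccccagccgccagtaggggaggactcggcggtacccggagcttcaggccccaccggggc
TAP2, chr6:32838720-32838989, minus strand: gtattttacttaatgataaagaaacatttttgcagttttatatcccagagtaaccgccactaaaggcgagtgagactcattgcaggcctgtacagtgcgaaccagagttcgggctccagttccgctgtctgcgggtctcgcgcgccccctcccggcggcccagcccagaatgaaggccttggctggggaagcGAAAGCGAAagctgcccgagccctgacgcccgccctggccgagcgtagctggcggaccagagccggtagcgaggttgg
TAPBP, chr6:33314059-33314328, minus strand: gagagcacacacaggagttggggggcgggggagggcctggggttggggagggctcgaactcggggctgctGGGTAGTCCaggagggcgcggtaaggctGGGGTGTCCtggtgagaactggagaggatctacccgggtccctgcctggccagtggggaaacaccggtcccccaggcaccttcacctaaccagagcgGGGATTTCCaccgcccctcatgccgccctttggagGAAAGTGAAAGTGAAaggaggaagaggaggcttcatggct

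In windows of 300 bases (250 before the start and 50 from it onwards), GAAANNGAA was present in 5 of the 10 member windows and in 8.11% of 35116 windows of all genes. The 5 belonged to B2M, TAP1, TAP2, TAPBP and PSMB8, and the windows of HLA-B, HLA-C and PSMB9 held no match of these letters. GGGNNNTCC was present in 5 of the 10, against 21.0% of all windows. Among these was the second start of TAP1, not shown above, with matches that began at positions -38 and -8. In HLA-B the overlapping matches on both strands began at positions -177 and -175 relative to the start, whereas the HLA-C window held none. In TAPBP the 2 overlapping GAAANNGAA matches began at positions -20 and -14. CCAAT was found in 5 of the 10 windows and in 34.6% of all windows. The letters ACGTG, the core of the hypoxia response element, were found in 1 of the 10, that of PSMB9, and in 21.4% of all windows. The first start of TAP1 and the start of PSMB9 lay 488 bases apart on opposite strands. These are matches of letters only, and binding was not measured here.

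The deposited values are CPM after TMM scaling, that is read counts set relative to library size. Nothing in the labels says that replicates came from separate cultures, so p-values measure the spread between these samples only. The replicated libraries held 19.0 to 25.4 M reads on genes and those of the mutants 17.8 to 20.1 M, with 40.9 to 43.0% of its columns in rows without a gene. Of the hypoxia targets CA9, SLC2A1, NDRG1 and VEGFA, 3 rose in FADU hypoxia (CA9 averaged 2.44 and then 34.4) and VEGFA fell in limma but not in edgeR, while in BFTC-909 all 4 rose (CA9 0.766 and then 55.1). In the FADU libraries labelled METL4-si these targets lay near their normoxic levels, although the label says hypoxia, with CA9 at 2.05, NDRG1 at 162 against 145 in normoxia and SLC2A1 at 359 against 361. By limma 0 of the 4 were called against normoxia there, also 0 at an unadjusted p and the same fold and 0 by edgeR. In the BFTC-909 METL4-si libraries the 4 lay between, with CA9 at 5.69, lower than in Scramble-si hypoxia and higher than in normoxia. METTL4 itself was at 24.2 and 27.1 in the FADU libraries labelled METL4-si and at 25.3 and 26.6 in Scramble-si hypoxia, with no fall (log2 fold change -0.02, adjusted p = 0.90). In the BFTC-909 libraries labelled METL4-si it was 12.2 and 14.4 against 15.6 and 19.0, a difference that missed the threshold (log2 fold change -0.36, adjusted p = 0.0717). METTL4-OE raised it from 32.7 and 35.4 to 139 and 158. The level of RP11-390F4.3 was not checked. The 2 mutant clones had METTL4 at 15.9 and 10.6 against 12.5, and the edit itself cannot be seen in these values. FADU normoxia replicate 1, FADU METL4-si replicate 1 and BFTC-909 METL4-si replicate 2 stood apart by their marker genes. The summed fibroblast markers were 25.6 against 4.74 in the other FADU normoxia library and 116 against 5.87 in the other FADU METL4-si library. The summed luminal breast markers were 572 against 75.1 in the latter pair. In BFTC-909 METL4-si the summed urothelial markers, mostly KRT8 and KRT18, were 1222 in replicate 2 and 30.1 in replicate 1. That list was chosen for BFTC-909 itself and not for another cell type. The summed luminal breast markers were 337 in replicate 2 and 190 in replicate 1. Of the urothelial list, KRT7, UPK1B, UPK2 and UPK3A were not listed for BFTC-909, whereas all 5 squamous markers were listed for FADU. Of 7 leukocyte markers only CD14 was listed, with at most 6.10, and PTPRC, which all leukocytes express, was not listed. In bulk RNA, fewer cells of a type and less RNA per cell cannot be told apart.

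Per kilobase of transcript, the light chain stood far above the rest in every control. B2M was at 445 ± 20.5 (SD, n = 2) in FADU normoxia, within the top 0.516% of genes, and at 451 ± 4.19 in BFTC-909 normoxia, within the top 0.558%. In FADU the order below it was HLA-C (213), TAPBP (66.4), HLA-E (60.2), HLA-B (26.4), PSMB8 (16.6), TAP1 (14.9), TAP2 (11.1) and PSMB9 (6.75). The ranges of PSMB8 and TAP1 overlapped (15.7 to 17.5 and 14.0 to 15.8), and those of the other neighbours did not. BFTC-909 kept B2M first but had TAPBP second (45.4), followed by HLA-C (39.5), HLA-B (18.7), HLA-E (17.5), TAP1 (9.35), PSMB8 (8.53), TAP2 (6.82) and PSMB9 (5.28). No neighbours overlapped there, but TAP1 and PSMB8 differed by less than the SD of PSMB8 (0.863). The sum of HLA-B, HLA-C and HLA-E per unit of B2M was 0.664 to 0.683 in FADU normoxia and 0.164 to 0.172 in BFTC-909 normoxia. The tables were scaled separately, so levels set across lines were not tested. HLA-B made up 10.7 and 11.3% of HLA-B plus HLA-C per kilobase in FADU normoxia and 32.0 and 32.3% in BFTC-909 normoxia.

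Hypoxia in FADU raised HLA-B and, less, the light chain, and lowered TAP1, while the other 6 members did not pass the test. A gene was called where limma gave an adjusted p under 0.05 over all genes tested and at least a 1.3-fold change. By this rule 2 of 9 members were higher and 1 was lower, against 9.73% and 9.65% of 16324 genes. HLA-B was at 38.4 and 42.6 in normoxia and at 113 and 128 in hypoxia. The groups lay far apart, with a log2 fold change of 1.55 (SE 0.114, adjusted p = 0.000571), 2.93-fold. HLA-C, the other classical heavy chain measured, was at 321 and 335 in normoxia and 326 and 351 in hypoxia, and HLA-E at 153 and 153 against 151 and 155. For both the groups overlapped, with log2 differences of 0.05 ± 0.0712 and -0.00 ± 0.0595 (± SE). HLA-B went from 10.7 and 11.3% to 25.9 and 26.8% of HLA-B plus HLA-C. B2M went from 406 and 433 to 594 and 598 (1.42-fold, adjusted p = 0.0180). TAP1 fell from 37.6 and 42.5 to 27.4 and 30.3 (log2 fold change -0.46, adjusted p = 0.0172). TAP2, its partner in the transporter, was at 59.1 and 66.0 and then 51.0 and 48.3, a difference that missed the threshold (adjusted p = 0.103). TAPBP, PSMB8 and PSMB9 moved by 0.05, -0.02 and -0.09 on the log2 scale, within the spread of their libraries. The calls of B2M and TAP1 were lost when any 1 of the 4 libraries was left out, with adjusted p of 0.0854 to 0.135 for B2M and 0.0579 to 0.133 for TAP1, and only HLA-B was then called. Without the 2 FADU libraries that stood apart TAP2 was called as well, at -0.40, but that fit took its spread from the Scramble-si hypoxia pair alone, the closest pair of the table, and called 25.8% of all genes against 19.4% with all libraries, so it adds no support. Other marker lists moved too. Both endothelial markers tested fell (CDH5 from 7.09 to 1.15 and VWF from 4.86 to 3.15). Of the urothelial markers 2 of 5 fell (KRT7 and KRT18), the sum of the list going from 3311 and 2886 to 1389 and 1327. Of the 5 squamous markers 3 rose and KRT6A fell. Their part in the class I values was not tested. The median of the 9 members was -0.00 and that of all genes -0.03.

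Hypoxia in BFTC-909 raised the 3 heavy chains, the light chain and tapasin and lowered TAP2. Of the 9 members 5 were higher and 1 lower, against 17.9% and 18.3% of 14869 genes. HLA-B was at 28.0 and 29.5 in normoxia and at 95.6 and 104 in hypoxia, 3.38-fold higher (log2 fold change 1.76, SE 0.0689, adjusted p = 1.06e-05). HLA-C went from 59.7 and 62.0 to 121 and 130, and HLA-E from 44.3 and 44.8 to 74.1 and 72.6. These were rises of 2.04-fold and 1.63-fold, with no overlap between groups. The share of HLA-B went from 32.0 and 32.3% to 44.3 and 44.4% of HLA-B plus HLA-C. B2M rose from 428 and 423 to 695 and 678 (1.61-fold, adjusted p = 0.00133) and TAPBP from 153 and 160 to 249 and 260 (1.62-fold, adjusted p = 0.000624). TAP2 moved the other way, from 39.5 and 37.4 down to 24.7 and 22.6 (log2 fold change -0.68, SE 0.107, adjusted p = 0.00208). TAP1, which TAP2 pairs with, was at 25.1 and 25.1 in normoxia and 21.9 and 25.1 in hypoxia, a log2 difference of -0.09 with an adjusted p of 0.422. The immunoproteasome subunits were at 8.91 and 10.3 against 11.8 and 12.9 for PSMB8 and at 5.28 and 5.45 against 6.89 and 5.97 for PSMB9. Both lay above normoxia in each library but missed the threshold (adjusted p = 0.0527 and 0.151). PSMB5, PSMB6 and PSMB7, the standard catalytic subunits that the inducible ones replace, all fell (log2 fold changes -0.71, -0.42 and -0.46). PSMB8 per kilobase went from 14.6 and 16.9% to 34.1 and 33.0% of PSMB5. The member median was 0.69 and that of all genes -0.02. No library left out changed the 6 calls. The fibroblast markers moved with hypoxia in this line: 5 of the 6 were tested and all 5 rose, their sum going from 1020 and 1114 to 4447 and 4652, and to 2481 and 2680 with METL4-si, where 3 fell. DCN was not listed. Their part in the class I values was not tested. The difference between the lines in their response was not tested, and for none of the 9 genes did the lines show groups apart in opposite directions.

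In the FADU libraries labelled METL4-si the peptide transporter genes were higher than in Scramble-si hypoxia, while HLA-B, B2M and PSMB8 were close to it. In the same comparison 3 of the 4 hypoxia targets fell to about their normoxic level (NDRG1 from 2892 to 162, CA9 from 34.4 to 2.05 and SLC2A1 from 1345 to 359) and VEGFA rose, and their part in the class I values was not tested. Of the members 3 were called higher and 0 lower by limma, against 12.5% and 15.3% of 16324 genes. At an unadjusted p under 0.05 and the same fold, and with edgeR on whole reads, the lower count was also 0. TAP1 went from 27.4 and 30.3 to 46.2 and 49.6 (1.64-fold, log2 fold change 0.71, SE 0.0953, adjusted p = 0.00238). It thus lay above normoxia (37.6 and 42.5) in each library, though that difference missed the threshold (adjusted p = 0.0899). TAP2 went from 51.0 and 48.3 to 60.5 and 77.7 (1.37-fold, adjusted p = 0.0300). HLA-C was at 429 and 456 after 326 and 351, 1.31-fold higher (adjusted p = 0.00754), just past the fold limit. HLA-B was at 100 and 122 and B2M at 564 and 698, and both overlapped the Scramble-si hypoxia values. HLA-B (1.43, adjusted p = 0.00164), B2M (0.58, adjusted p = 0.0108) and HLA-C (0.43, adjusted p = 0.00751) were called higher than in normoxia. The contrast with normoxia was not planned beforehand and differs in oxygen as well as in METL4-si. TAPBP (289 and 300 after 224 and 249) and HLA-E (175 and 181 after 151 and 155) passed the adjusted p, at 0.0162 and 0.0295, but stayed under 1.3-fold. PSMB8 was at 16.8 and 18.4 and PSMB9 at 7.82 and 8.77, neither past the test. The calls of HLA-C and TAP2 depended on single libraries: only TAP1 was called without Scramble-si hypoxia replicate 1 or without METL4-si replicate 2, and also after centring each library on its median. TAP2 was also lost without Scramble-si hypoxia replicate 2 (adjusted p = 0.167). Without the libraries that stood apart PSMB9 was called as well, at 0.40, but METL4-si was then 1 library, the spread again came from the Scramble-si hypoxia pair alone, and 34.5% of all genes were called against 27.8% with all libraries. Of the 5 squamous markers 3 fell (KRT5, KRT14 and TP63), their sum going from 2780 and 3073 to 1775 and 1992, both endothelial markers tested rose, and so did KRT7 and CD14. Their part in the class I values was not tested. The member median was 0.32, against 0.02 for all genes. This comparison shares the Scramble-si hypoxia libraries with that of FADU hypoxia against normoxia.

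In BFTC-909 the METL4-si libraries had the highest values of 8 members in that table. Of the 9, 8 were called higher and 0 lower, against 13.2% and 11.7% of 14869 genes, and all 9 lay above Scramble-si hypoxia in both libraries, as did 32.7% of all genes. An unadjusted p and edgeR on whole reads also gave 0 lower. HLA-B reached 404 and 404 after 95.6 and 104 in Scramble-si hypoxia, a further 4.03-fold (log2 fold change 2.01, SE 0.0689, adjusted p = 1.53e-05). Against normoxia, a contrast that was not planned beforehand and differs in oxygen as well as in METL4-si, this was 13.6-fold. HLA-B ranked 8 among 14869 genes ordered by that rise. HLA-C rose to 295 and 337 (2.50-fold) and HLA-E to 113 and 116 (1.55-fold). HLA-B thereby passed HLA-C, at 57.9 and 54.6% of their sum per kilobase. B2M rose from 695 and 678 to 1506 and 1228 (1.98-fold, adjusted p = 0.000475). On the peptide supply side, TAP1 went to 57.5 and 60.5 (2.45-fold), TAPBP to 367 and 425 (1.55-fold), PSMB8 to 32.3 and 27.8 (2.32-fold) and PSMB9 to 17.8 and 18.7 (2.59-fold). TAP2 was the exception, at 33.6 and 27.8 after 24.7 and 22.6: its adjusted p was 0.0397 but its change, 1.28-fold, fell short of the limit, and it stayed below normoxia (39.5 and 37.4). PSMB8 per kilobase reached 109 and 71.8% of PSMB5, and PSMB9 40.5 and 38.9% of PSMB6 after 14.2 and 11.9%. Without replicate 2, which stood apart, all 9 members were called, TAP2 at 0.49 (adjusted p = 0.000184). METL4-si was then 1 library, assumed to vary like the other groups, and 27.0% of all genes were called against 24.9% with all libraries. All 4 hypoxia targets fell in this comparison (CA9 from 55.1 to 5.69), and their part in the class I values was not tested. The other 8 calls held with any library left out. The member median was 1.22 against 0.01 for all genes. This comparison shares the Scramble-si hypoxia libraries with that of hypoxia against normoxia, and the METL4-si libraries with the 13.6-fold contrast.

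**Figure D1:**
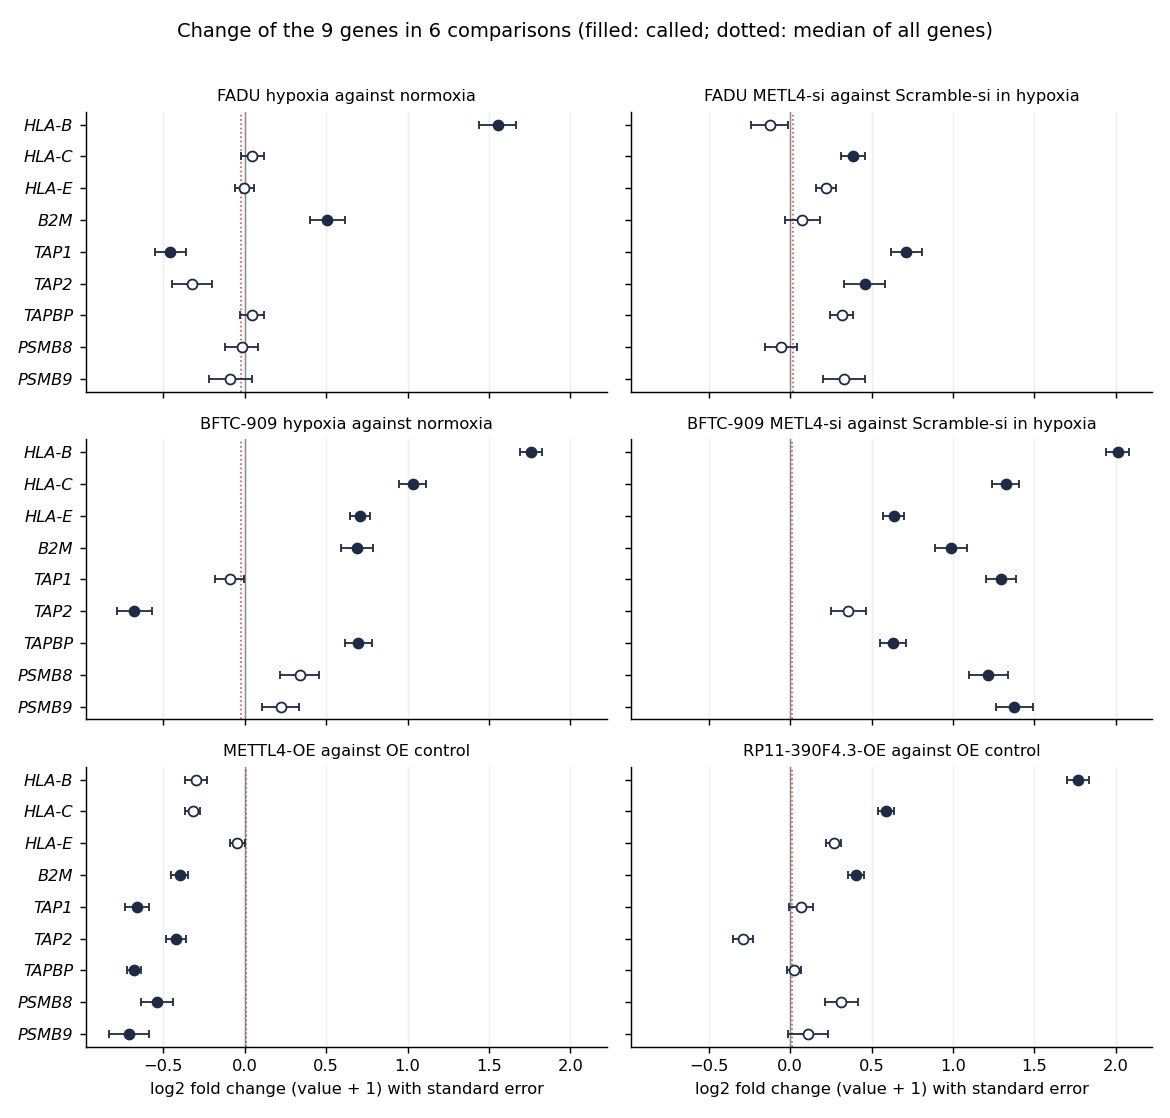
Log2 fold change on the scale of value + 1 (horizontal axis) with its standard error for the 9 genes in the 6 replicated comparisons, 2 libraries per group. Filled points passed an adjusted p of 0.05 and 1.3-fold, open points did not, the solid line is 0 and the dotted line the median of all genes tested. HLA-B is the rightmost gene in 4 panels, and all 9 points lie left of 0 in the METTL4-OE panel.

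The normoxic FADU METTL4-OE cells had less RNA of the peptide supply and loading genes and of B2M than the OE control. These cells and the OE control were stable clones, and nothing in the labels says that libraries of a group came from different clones. A difference made by the construct therefore cannot be told apart from one between clones. Of the 9 members 6 were lower and 0 higher, against 10.5% and 8.00% of 15644 genes. All 9 lay below the OE control in both libraries, as did 33.6% of all genes, and 0 were higher by an unadjusted p or by edgeR on whole reads. PSMB9 went from 6.97 and 8.33 to 4.03 and 4.53 (log2 fold change -0.71, SE 0.123, adjusted p = 0.000443). TAPBP went from 220 and 209 to 133 and 134 (-0.68, SE 0.0441, adjusted p = 4.19e-08) and TAP1 from 31.8 and 35.1 to 20.1 and 21.4 (-0.66, adjusted p = 8.18e-06). These 3 fell by about the same amount, with no overlap between groups. PSMB8 (18.2 and 23.2 to 14.3 and 13.4), TAP2 (55.5 and 54.4 to 41.6 and 39.9) and B2M (439 and 405 to 323 and 315) fell by 0.54, 0.42 and 0.40 on the log2 scale. Among the members the heavy chains changed least, while 2 of the 3 other heavy chains tested were called lower (list median -0.52). HLA-B was at 31.4 and 27.2 in the control and 24.0 and 23.2 with METTL4-OE, and HLA-C at 255 and 255 against 213 and 196. Both passed the adjusted p (0.00323 and 0.000118) but were under 1.3-fold, and HLA-E differed by -0.05 (adjusted p = 0.454). The call of B2M was lost without OE control replicate 1 and that of PSMB8 without OE control replicate 2, each falling under 1.3-fold, at -0.34 and -0.37, while HLA-B was called without OE control replicate 2 (-0.40). Other marker lists fell as well. Of the urothelial markers 3 of 5 were called, the sum of the list going from 2842 and 2836 to 1979 and 1901. Both endothelial markers tested and the 1 fibroblast marker tested fell too. Of the 5 squamous markers 2 fell and 1 rose. Their part in the class I values was not tested. PSMB8 went from 33.6 and 37.2% to 23.8 and 21.0% of PSMB5 per kilobase, and PSMB9 from 7.69 and 8.19% to 3.66 and 4.07% of PSMB6. The member median was -0.42 and that of all genes 0.01.

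The RP11-390F4.3-OE cells, also stable clones and under the same limit, had more HLA-B, HLA-C and B2M RNA than the OE control. These 3 were the members called higher and 0 were called lower, against 16.5% and 12.5% of 15644 genes, and the lower count was 0 with an unadjusted p and with edgeR as well. HLA-B went from 31.4 and 27.2 to 103 and 101, 3.41-fold higher (log2 fold change 1.77, SE 0.0682, adjusted p = 1.71e-10). HLA-C went from 255 and 255 to 378 and 391 (1.50-fold) and B2M from 439 and 405 to 578 and 538 (1.32-fold, adjusted p = 1.96e-05). B2M lay just past the fold limit, and its call was lost without OE control replicate 2, without RP11-390F4.3-OE replicate 1 and after median centring (0.35, 0.35 and 0.32). HLA-E (155 and 159 against 131 and 130) and PSMB8 (25.6 and 26.0 against 18.2 and 23.2) passed the adjusted p, at 0.000247 and 0.0165, under 1.3-fold. So did TAP2, in the other direction, at 47.3 and 42.4 against 55.5 and 54.4 (log2 difference -0.29, adjusted p = 0.00165). TAP1, TAPBP and PSMB9 overlapped the control, at 0.07, 0.02 and 0.11. HLA-B took 21.5 and 20.6% of HLA-B plus HLA-C, after 11.0 and 9.67% in the control and 10.2 and 10.6% with METTL4-OE. Of the other marker lists, both endothelial markers tested and 2 of 5 urothelial ones fell. CD14, GATA3 and 2 of 5 squamous markers rose, and their part in the class I values was not tested. The member median was 0.27 against 0.01 for all genes.

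Both constructs share the OE control, so they were also compared with each other, a contrast added after the values were seen. Here too, constructs cannot be told apart from clones. Of the 9 members 7 were called higher with RP11-390F4.3-OE than with METTL4-OE and 0 lower, against 18.4% and 13.3% of 15644 genes. HLA-B was higher by a log2 difference of 2.07 (SE 0.0682, adjusted p = 5.03e-11). TAP1, TAPBP, PSMB8 and PSMB9 differed by 0.73, 0.70, 0.86 and 0.82 in the same direction. HLA-E and TAP2 were not called, at 0.31, under 1.3-fold, and at 0.13 (adjusted p = 0.0891). The hypoxia targets CA9, SLC2A1 and NDRG1 were called higher with both constructs against the control (CA9 at 9.27 with METTL4-OE and 13.4 with RP11-390F4.3-OE, after 0.825).

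The hypoxic METTL4-DPPW-mut clones had less light chain, HLA-C, HLA-E and tapasin RNA than the hypoxic CRISPR control. There was 1 library for the control and 1 for each clone, so members were counted by fold, and a difference between the lines cannot be told apart from one between single-cell clones. Of the 9 members 4 were more than 1.3-fold lower in both clones and 0 more than 1.3-fold higher in both, against 11.8% and 8.94% of 15719 genes. B2M was at 247 for the control, 137 for clone 1 and 132 for clone 2 (log2 ratios -0.85 and -0.90). HLA-E was at 94.7, 51.6 and 56.0, HLA-C at 172, 111 and 102, and TAPBP at 151, 93.8 and 97.0. For these 4 genes the clones gave nearly the same ratio. The clones parted for HLA-B, at 28.2 in the control, 31.5 in clone 1 and 17.9 in clone 2. TAP1 (13.6, then 12.0 and 9.44), PSMB8 (8.16, then 7.15 and 5.61) and PSMB9 (2.43, then 2.71 and 1.47) were past 1.3-fold in clone 2 alone. TAP2 was the member above the control in both clones, at 15.6 and then 24.1 and 18.5, past 1.3-fold in clone 1. Taken alone, clone 1 had 4 members lower and 1 higher, against 16.9% and 14.4% of all genes, and clone 2 had 8 lower and 0 higher, against 17.5% and 14.1%. A limma fit with the clones as 1 group of 2, added after the values were seen, called the same 4 members lower (HLA-C, HLA-E, B2M and TAPBP, adjusted p = 0.0126, 0.00541, 0.00358 and 0.0143) and 0 higher, against 6.92% and 4.77% of 13461 genes tested. It had 1 residual degree of freedom, from the clones, and the lone control is assumed to vary as they do. At an unadjusted p TAP2 was also higher, and edgeR was not run on this table. CA9 (29.8 in the control, 10.4 and 15.2 in the clones) and NDRG1 (1657, then 895 and 897) were past 1.3-fold lower in both clones, SLC2A1 and VEGFA were not. The scaling of this table included rows without a gene, so its levels were not set against those of the other FADU tables.

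**Figure D2:**
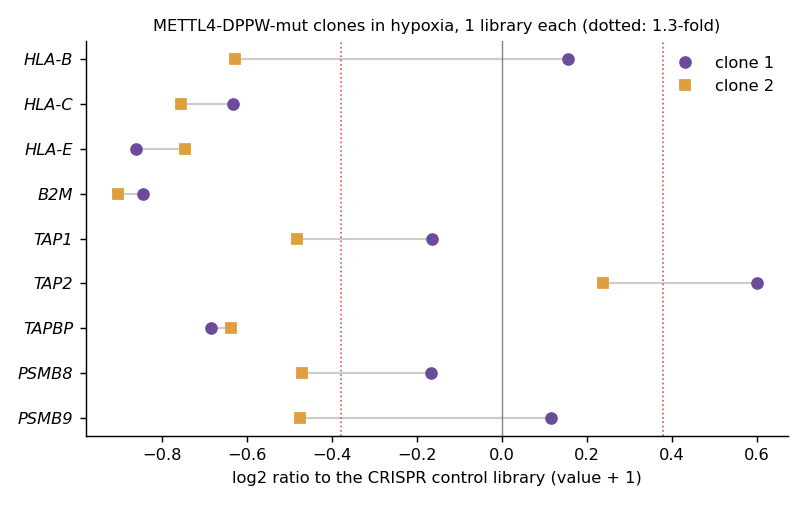
Log2 ratio of value + 1 to the CRISPR control library (horizontal axis) for the 9 genes in the 2 METTL4-DPPW-mut clones in hypoxia, 1 library each. The dotted lines mark 1.3-fold. HLA-C, HLA-E, B2M and TAPBP lie left of the line in both clones, and TAP2 lies right of 0 in both.

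TAP2 stood apart from the other members by its correlations over the series, but not in every comparison. With METTL4-OE its log2 fold change was the member median (-0.42), and with FADU METL4-si it was called higher, like TAP1 and HLA-C. Over the 18 replicated libraries, with log2 values taken relative to the control of the same table, the 28 pairs among the other 8 members correlated at 0.724 (HLA-B with TAP1) to 0.988 (HLA-C with HLA-E). TAP2 correlated at -0.40 with HLA-E, -0.33 with HLA-B, -0.32 with HLA-C and at most 0.16, with TAP1. HLA-B went with B2M (0.966), and PSMB9 with PSMB8 (0.956) and TAP1 (0.953). The libraries share tables and controls, and the BFTC-909 METL4-si pair lies far from the rest, so these values describe the series and carry no test. The 5 other genes most like the mean of the 9 members, among 9672 genes, were HLA-F, a further class I heavy chain (r = 0.983), BTN3A2 (0.982), DHRS7 (0.981), IFIH1, a sensor of double-stranded RNA (0.980), and TUBG2 (0.974).

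Among the transcription regulators of class I genes, NLRC5 moved in most comparisons, in different directions in the lines. In FADU it was at 24.8 and 26.0 in normoxia, 14.6 and 15.0 in hypoxia and 31.7 and 35.7 with METL4-si. The fall (-0.74, adjusted p = 0.00298) and the rise (1.14, adjusted p = 0.000463) were both called, but they share the Scramble-si hypoxia libraries. The group means of TAP1 and TAP2 lay in the same order, while HLA-B did not (40.5, 121 and 111). In BFTC-909 it was at 23.0 and 25.1, then 44.5 and 46.4, then 65.0 and 69.4, with rises of 0.89 and 0.55, in the same order as HLA-B there but not as TAP1 (25.1, 23.5 and 59.0) or TAP2 (38.5, 23.7 and 30.7). With METTL4-OE it went from 24.9 and 29.5 to 10.2 and 10.7 (-1.30, adjusted p = 7.56e-08), and with RP11-390F4.3-OE it was at 24.1 and 25.9, not called (adjusted p = 0.287). The mutant table gave 8.77 for the control, 8.11 for clone 1 and 6.34 for clone 2. Of the 9 regulators, 2 fell in FADU hypoxia (NLRC5 and RFXANK) and 1 rose with FADU METL4-si (NLRC5). In each BFTC-909 comparison 1 rose (NLRC5) and 1 fell (NFYA). With METTL4-OE 2 fell, and with RP11-390F4.3-OE 1 rose and 1 fell. IRF1 fell with both constructs (-0.65 and -0.39), and IRF2 rose with RP11-390F4.3-OE (0.69). In the clones 3 regulators, IRF1, IRF2 and RFX5, were past 1.3-fold lower in both and RFXAP was past it higher.

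The other heavy chains moved with most members in BFTC-909. In FADU hypoxia they rose (list median 0.47), while most members did not (median -0.00). Of 3 tested, 3 rose in FADU hypoxia, 1 with FADU METL4-si, 3 in each BFTC-909 comparison and 2 with RP11-390F4.3-OE, and 2 fell with METTL4-OE. HLA-F was among them each time: 6.06 to 9.40 in FADU hypoxia and 13.8 with METL4-si, 1.35 to 2.97 and 16.7 in BFTC-909, and 5.75 in the OE control against 2.80 with METTL4-OE and 11.7 with RP11-390F4.3-OE (group means, n = 2). MR1, which presents vitamin metabolites, rose in hypoxia in both lines (0.40 and 1.17) and fell with METTL4-OE (-0.52).

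Loading chaperones and trimming enzymes did not move as a group. Of 6, 1 rose in FADU hypoxia, 2 with FADU METL4-si and 3 in BFTC-909 hypoxia. With BFTC-909 METL4-si 3 rose and 3 fell, with METTL4-OE 2 fell and with RP11-390F4.3-OE 1 fell. The list medians ran from -0.23 to 0.45 in these 6 comparisons. ERAP1, which trims peptides in the endoplasmic reticulum, rose in hypoxia in both lines (0.47 and 0.52). TAPBPL, a tapasin relative that edits peptides, rose with METL4-si in both (0.60 and 0.61) and fell with METTL4-OE (-0.61). The lectin chaperone CALR was opposite in the lines with METL4-si, at 0.41 in FADU and -0.69 in BFTC-909. In BFTC-909 CANX, its membrane-bound relative, fell too (-0.76), while ERAP2, a second trimming enzyme, rose (0.75), as it fell with METTL4-OE (-0.71).

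The standard proteasome subunits moved down or not at all. Of PSMB5, PSMB6 and PSMB7, 1 fell in FADU hypoxia (PSMB5, -0.49), 3 in BFTC-909 hypoxia and 2 with FADU METL4-si (PSMB6, -0.51, and PSMB7, -0.39). The other 3 replicated comparisons gave 0 calls in limma, 0 at an unadjusted p and 0 in edgeR. Of PSMB10, PSME1 and PSME2, further interferon-inducible parts of the proteasome, PSME1 was the gene called, lower with FADU METL4-si (-0.40) and higher with BFTC-909 METL4-si (0.56). The interferon receptors and their kinases gave 0 calls of 6 in hypoxia in either line in limma and 0 at an unadjusted p, while edgeR called 0 in FADU and 1 in BFTC-909. With METL4-si IFNAR2 rose in both lines (0.51 and 0.58), with JAK1 and IFNGR2 lower in BFTC-909. IFNGR1 fell with METTL4-OE (-0.44) and IFNGR2 rose with RP11-390F4.3-OE (0.82).

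Of the 5 interferon-stimulated genes ISG15, IFIT1, IFIT3, MX1 and OAS1, which answer interferon without taking part in presentation, 5 rose in FADU hypoxia (median log2 fold change 0.78). In BFTC-909 hypoxia limma called 0, as did an unadjusted p and edgeR (median -0.07). With METL4-si 5 rose in BFTC-909, with MX1 going from 1.49 to 16.4, and in FADU 1 fell (ISG15, -0.45). Of the same 5, 3 fell with METTL4-OE and 3 rose with RP11-390F4.3-OE, MX1 and OAS1 in opposite directions (MX1 -1.25 and 0.89, OAS1 -1.29 and 1.13). In the clones all 5 were past 1.3-fold lower in both. The NK cell ligands related to class I gave 2 of 5 higher with FADU METL4-si (MICB and ULBP1), 1 higher and 1 lower in BFTC-909 hypoxia (ULBP1 and ULBP3) and 1 lower with METTL4-OE (MICA), and 2 (MICA and ULBP1) were past 1.3-fold lower in both clones. Class II genes stayed near 0: of 8, 1 or 2 were tested per table, and their summed value was at most 3.73 in any library. CD74, the class II invariant chain, and HLA-DMA rose with BFTC-909 METL4-si (0.432 to 2.19 and 0.528 to 1.34).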

How the data were processed

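Per the submitters' processing notes and the study's methods, the tools behind the files were Trim Galore (trimming), HISAT2 (alignment, hg19), HTSeq (counting) and edgeR (scaling); versions, annotation and strand setting are not given in the sources used here. The deposited values are a normalised signal, CPM after TMM scaling by the authors, in 1 table per experiment. Their fold changes and p-values, deposited for each comparison, were not used. In the 3 tables with replicates every low value was a whole number of reads (100% within a tolerance of 0.01), and edgeR was run on those reads as an alternative. edgeR was not run on the mutant table, where the value of a single read was estimated from the spacing of low values. By that estimate its low values were also 100% whole.

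Gene identifiers were matched to symbols. limma 3.58.1 (R 4.3.3, empirical Bayes with a trend) was run on log2(value + 1) for genes of at least 1 in at least 2 libraries, so fold changes of low genes are understated, and the 3 groups of a table shared 1 estimate of the spread. A gene was called at a Benjamini-Hochberg adjusted p under 0.05 over all genes and at least 1.3-fold. Alternatives were pseudocounts of 0.1 and 5, no filter, a mean of at least 5, the compared groups alone, median centring, edgeR 4.0.16, unadjusted p, 2-fold, a replicate block and leaving out libraries. In the mutant table members were counted by fold, with limma over its 3 libraries added after the values were seen. The contrasts of METL4-si hypoxia with Scramble-si normoxia were also not among those planned. The fits were tested on simulated data. Ratios, sums and figures used Python 3.11.15 with numpy 2.4.6, pandas 2.3.3 and matplotlib 3.10.9. The columns used for RP11-390F4.3-OE were assigned by elimination. All 9 members are named, and of the other lists the called genes with the largest changes and those called in both lines or with both constructs; other list genes were named after their values were seen. The members and lists were chosen with earlier results of these data known. Some genes that the rule would name are not reported here, and 1 was also left out of the list of regulators.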

Additional observations from a re-analysis of the deposited data

How the results depend on the processing

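With 2 libraries per group, small changes of single members are poorly resolved. Requiring 2-fold left 1 member called in FADU hypoxia, 0 with FADU METL4-si, 2 in BFTC-909 hypoxia, 5 with BFTC-909 METL4-si, 0 with METTL4-OE, 1 with RP11-390F4.3-OE and 0 in both mutant clones. At 1.3-fold, median centring left 1 called with FADU METL4-si, and clone 2 alone had 8 members past the fold. Leaving out 1 library gave 1 to 1 called in FADU hypoxia, 1 to 4 with FADU METL4-si, 6 to 6 and 8 to 9 in the BFTC-909 comparisons, 5 to 6 with METTL4-OE and 2 to 3 with RP11-390F4.3-OE. edgeR on whole reads gave 3, 2, 6, 8, 6 and 3 in the same order. Signs turned only for members that were not called. In FADU hypoxia HLA-E became 0.045 and PSMB8 0.028 by median centring, and 0.029 and 0.0088 by edgeR. With RP11-390F4.3-OE, centring gave TAP1 at -0.013 and TAPBP at -0.056. Without the libraries with other markers, HLA-B was at 0.013 and PSMB8 at 0.0049 with FADU METL4-si. Leaving out 1 library gave these ranges across 0. In FADU hypoxia they were -0.0077 to 0.098 for HLA-C, -0.025 to 0.019 for HLA-E, -0.030 to 0.12 for TAPBP, -0.094 to 0.053 for PSMB8 and -0.19 to 0.012 for PSMB9. With FADU METL4-si they were -0.26 to 0.013 for HLA-B, -0.080 to 0.23 for B2M and -0.12 to 0.0049 for PSMB8, and against normoxia -0.044 to 0.31 for TAP2. TAP1 ran from -0.19 to 0.0019 in BFTC-909 hypoxia. With RP11-390F4.3-OE the ranges were -0.0022 to 0.14 for TAP1, -0.011 to 0.059 for TAPBP and -0.0068 to 0.22 for PSMB9. The pseudocounts, filters and the fit of compared groups alone moved no count of members called. A replicate block left the counts at 3, 3, 6, 8 and 6. Same-numbered replicates did not deviate together in most pairs of groups (correlations of -0.09 to 0.25). The exception was FADU normoxia with FADU METL4-si (0.68), where replicate 1 of each group stood apart by its marker genes. These values cannot decide whether the samples were paired, and the main fits used no pairing. No paired analysis was possible for RP11-390F4.3-OE because its columns were assigned to the group and not to its numbered samples. Over all genes, FADU hypoxia had 3163 calls, but 752 to 1065 with any library left out. The cause of these differences was not tested.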
